A study of Mus musculus with 6 samples.

Results

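The genes described are 7 that take up glutamate and GABA or recycle them through glutamine, out of 29872 genes measured by RNA sequencing of mouse hippocampus. They were chosen by name, not by a cut on their values, but with earlier results of these data known. They are the glutamate transporters Slc1a1, Slc1a2 and Slc1a3, the enzyme Glul, the glutamine transporters Slc38a1 and Slc38a3, and the GABA transporter Slc6a11. Each name matched 1 gene identifier. All 7 had a mean of at least 1 RPKM (reads scaled to gene length and library size) over the 6 libraries and entered the test. The mice were C57BL/6J, and 2 groups of 3 libraries were compared. In the shHepaCAM group, whose genotype is labelled as a hepaCAM knockdown, the CA1 field of both hippocampi received AAV, a viral vector, carrying a short hairpin RNA against Hepacam, an adhesion molecule of astrocytes. These libraries are called knockdown libraries 1 to 3 below, after their replicate numbers, and those of the shControl group control libraries 1 to 3. The shControl group is labelled wild type, and its labels do not say whether these mice received a vector. The sources used here do not give age, sex, the promoter of the vector or the time after injection. RNA came from the hippocampus rather than from the injected field alone, so transduced and untransduced cells were measured together.

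Glutamate released at synapses is cleared mainly by astrocytes, through the sodium-driven transporters GLT-1 (Slc1a2) and GLAST (Slc1a3), while EAAC1 (Slc1a1) is the transporter of neurons. In astrocytes glutamine synthetase (Glul) turns glutamate into glutamine. Glutamine leaves through SNAT3 (Slc38a3), is taken up by neurons through carriers such as SNAT1 (Slc38a1), and is turned back into glutamate, from which inhibitory neurons make GABA. GABA is taken up by astrocytes through GAT3 (Slc6a11), which is abundant in thalamus.

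Depth behind the values was between 14903198 and 17341842 reads per library, so that each member rested on 1470 to 40866 reads in every library. Hepacam itself measured 37.3, 33.4 and 35.9 RPKM in control libraries 1 to 3 and 24.4, 22.6 and 20.9 RPKM in knockdown libraries 1 to 3. It was lower in every knockdown library (log2 change -0.63, limma adjusted p = 0.00924, and 0.0526 without control library 3). All 12 astrocyte markers and all 10 neuron markers on the lists used were present, as the tissue label implies, and the summed astrocyte markers ranged from 766 to 856 RPKM in control and from 803 to 893 RPKM in knockdown. Of 10 microglia markers 6 rose, and the 8 lymphocyte markers summed to 3.59 to 5.70 RPKM in control and 506 to 1820 RPKM in knockdown, where the antibody chain transcript Igkc made up most of it. The part of these cells in the members' levels was not tested. The 8 choroid plexus markers set apart control library 1 and knockdown library 3, at 69.1 and 30.0 RPKM against 1701 to 4302 RPKM in the other 4 libraries. The labels do not say that libraries came from separate mice, so p-values measure only how far these samples spread, and that spread may be technical. In tissue RNA, fewer cells of a type and less RNA per cell cannot be told apart.

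Of the 7 members, 1 fell and 0 rose in knockdown at an adjusted p of 0.05 in limma, and the other 6 did not pass. Among all 13864 genes tested, 1.84% fell and 4.23% rose by the same rule. The gene that fell was Slc1a2. At an unadjusted p of 0.05 in limma, Glul and Slc6a11 also passed on the lower side and Slc38a3 on the higher side. Their adjusted p-values in limma were 0.0562, 0.117 and 0.106. The share of all genes passing this looser cut-off was not computed, and the shares above do not apply to it. After adjustment, limma-voom on whole reads called 2 members lower and 0 higher. The share of all genes that limma-voom called is not given here, so this count has no background beside it. Ranges did not overlap between the groups for 6 members. For Slc1a2, Slc1a3, Glul and Slc6a11 every knockdown library lay below every control library, which held for 10.7% of all genes tested. For Slc38a1 and Slc38a3 every knockdown library lay above, which held for 20.9% of all genes tested. Slc1a1 overlapped. The median log2 change, on the log2(RPKM + 1) scale used for every fold change here, was -0.09 over the 7 members and 0.05 over all genes tested.

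**Figure D1:**
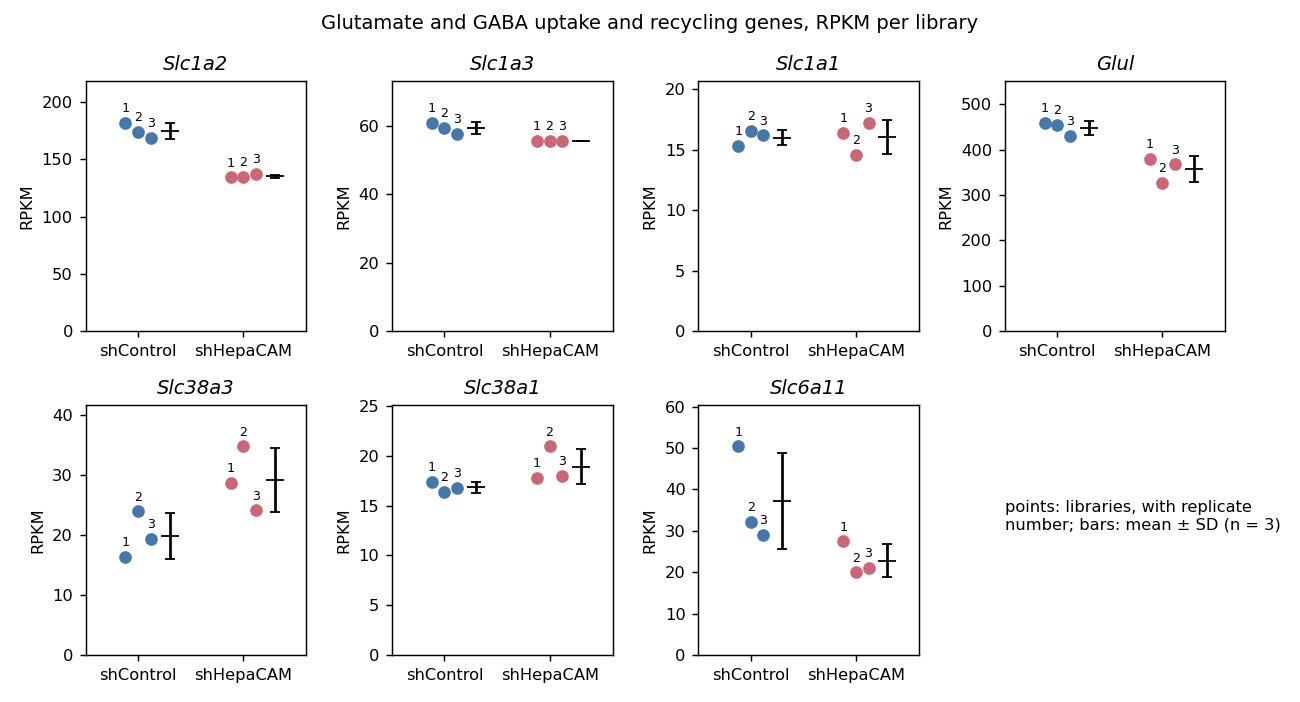
RPKM of the 7 genes in each library, 1 panel a gene, with the replicate number beside each point and the mean ± SD of 3 libraries at its side; every axis starts at 0. The 3 knockdown libraries of Slc1a2 sit between 134 and 137 RPKM, below the control libraries at 168 to 182 RPKM, while those of Slc1a1 spread over the control range.

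In order of level per gene length, Glul stood first in control, at a mean of 448 RPKM, before Slc1a2 at 175, Slc1a3 at 59.4, Slc6a11 at 37.1, Slc38a3 at 19.9, Slc38a1 at 16.9 and Slc1a1 at 16.0 RPKM. The last 3 overlapped between neighbours in that order, and the first 4 did not. In knockdown the order was the same except that Slc38a3, at 29.2 RPKM, stood before Slc6a11, at 22.8 RPKM, with overlapping ranges, and the ranges of Slc6a11 and Slc38a1 overlapped too. Glul was the 40th and Slc1a2 the 159th highest of all genes tested in control by mean RPKM.

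The astrocyte glutamate transporters differed from each other in the size of their change. Slc1a2 (ENSMUSG00000005089) measured 182, 174 and 168 RPKM in control libraries 1 to 3 and 134, 135 and 137 RPKM in knockdown libraries 1 to 3. The knockdown libraries lay close together and the lowest control library lay well above them. The mean went from 175 ± 6.77 to 135 ± 1.49 RPKM (SD, n = 3 each), 22.7% lower. The log2 change was -0.37 (SE 0.06, 95% interval -0.50 to -0.24) and the adjusted p in limma was 0.0181. Of all genes tested, 3.82% had a lower change. It passed under 12 of 18 alternatives. Its call was lost when any 1 control library was left out: the adjusted p in limma was 0.0683, 0.0858 and 0.0738 without control library 1, 2 or 3, in that order, at log2 changes of -0.34, -0.37 and -0.39. It was also lost with no filter on low genes (adjusted p = 0.0542) and without both libraries poor in choroid plexus transcripts (adjusted p = 0.122, log2 change -0.35).

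Slc1a3 (ENSMUSG00000005360) measured 61.0, 59.6 and 57.6 RPKM in control libraries 1 to 3 and 55.8 RPKM in each knockdown library. The knockdown libraries were again the lower ones, by 6.11% in the mean. The log2 change was -0.09, with a 95% interval of -0.21 to 0.03 and an adjusted p of 0.325 in limma, so a fall of the size seen in Slc1a2 lies outside its interval. Within each library, Slc1a2 exceeded Slc1a3 by a log2 ratio of 1.56, 1.53 and 1.53 in control libraries 1 to 3 and of 1.25, 1.26 and 1.28 in knockdown libraries 1 to 3. This ratio, which scaling of whole libraries hardly moves, was 0.28 lower in knockdown, against an SD of 0.02 in either group. An exact permutation test, two-sided like all others here, gave p = 0.1, the smallest possible with 3 libraries against 3, and 0.157 after Benjamini-Hochberg adjustment over 11 such relations.

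Slc1a1 (ENSMUSG00000024935), the transporter of neurons, measured 15.3, 16.5 and 16.2 RPKM in control libraries 1 to 3 and 16.4, 14.5 and 17.2 RPKM in knockdown libraries 1 to 3. The knockdown libraries included both the lowest and the highest value. Its log2 change was 0.00 with a 95% interval of -0.18 to 0.18 (limma adjusted p = 0.991). Its exons overlap those of 4430402I18Rik on the other strand by 2631 bases, and without a stated strand setting for the counting, reads there cannot be told apart. That gene was at 0.829 to 1.37 RPKM. The annotated genes that overlap Slc1a2 and Glul on the other strand were at 0 to 0.0334 RPKM (Gm13872) and 0.0758 to 0.361 RPKM (Teddm2). Summed over the 3 glutamate transporters, the level went from 250 ± 7.99 to 207 ± 2.58 RPKM (SD, n = 3 each), 17.3% lower. The share of Slc1a2 in that sum was 69.9% ± 0.51 in control and 65.3% ± 0.34 in knockdown (SD, n = 3 each), and that of Slc1a3 was 23.7% ± 0.10 and 26.9% ± 0.34.

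The sequences before the transcription start of Slc1a2, Slc1a3 and Glul are shown because these are astrocyte genes of a common cycle whose knockdown libraries all lay below control, by different amounts. RefSeq, on build GRCm38.p6, holds a window for 5 of the 7 members. The 250 bases before the start are given 5′ to 3′ on the gene's strand, in lower case with motif matches in capitals. The window of Slc1a2 is chr2:102706188-102706437 on the plus strand, that of Slc1a3 is chr15:8710808-8711057 on the minus strand, and that of Glul is chr1:153899679-153899928 on the plus strand.
Slc1a2: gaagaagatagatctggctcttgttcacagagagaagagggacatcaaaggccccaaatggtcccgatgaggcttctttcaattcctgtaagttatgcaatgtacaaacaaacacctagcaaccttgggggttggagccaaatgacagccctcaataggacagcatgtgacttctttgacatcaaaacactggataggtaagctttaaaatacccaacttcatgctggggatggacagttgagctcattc
Slc1a3: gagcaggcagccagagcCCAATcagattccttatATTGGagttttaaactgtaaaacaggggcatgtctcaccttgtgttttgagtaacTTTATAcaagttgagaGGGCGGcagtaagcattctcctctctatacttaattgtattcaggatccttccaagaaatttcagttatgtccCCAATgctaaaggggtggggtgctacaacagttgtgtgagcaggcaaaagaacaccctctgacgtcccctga
Glul: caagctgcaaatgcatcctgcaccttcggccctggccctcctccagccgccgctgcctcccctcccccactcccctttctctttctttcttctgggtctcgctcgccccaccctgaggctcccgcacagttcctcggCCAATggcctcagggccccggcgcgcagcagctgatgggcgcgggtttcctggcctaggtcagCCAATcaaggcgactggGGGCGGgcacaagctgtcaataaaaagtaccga
Both strands were searched for the TATA box (TATAAA), the CCAAT box (CCAAT), the GC box (GGGCGG), an E-box (CACGTG), a sterol regulatory element (TCACNCCAC), an RBPJ site (TGGGAA) and a cyclic AMP response element (TGACGTCA); no motif of the list contains another. The Slc1a3 window held 1 TATA box, 3 CCAAT boxes and 1 GC box, and the Glul window 2 CCAAT boxes and 1 GC box. The TATA box letters occur in 12.4%, the CCAAT letters in 33.9% and the GC box letters in 32.7% of 32851 windows of this length. None of the 7 motifs was found in the window of Slc1a2, whose GC content was 44.8%, as was that of Slc1a3, against 64.8% for Glul. GENCODE M21 lists 11 starts for Slc1a2, of which 7 lie upstream of the start used here. The nearest start it lists is 43 bases from the one used for Slc1a3 and 15 bases from the one used for Glul. A match describes letters only, and its absence says nothing of a factor.

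The gene that makes glutamine was lower in each knockdown library without passing the threshold. Glul (ENSMUSG00000026473) measured 460, 454 and 431 RPKM in control libraries 1 to 3 and 380, 326 and 368 RPKM in knockdown libraries 1 to 3. The groups did not overlap, and the means were 448 ± 15.4 and 358 ± 28.2 RPKM (SD, n = 3 each), 20.1% lower in knockdown. In limma the log2 change was -0.33 (SE 0.08, 95% interval -0.51 to -0.14) and the adjusted p was 0.0562. It passed under 4 of 18 alternatives, with adjusted p-values of 0.0458 with array weights, 0.0412 with a filter at 5 RPKM, 0.0294 with limma-voom on whole reads and 0.0204 with quantile normalization.

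The glutamine carriers among the members, Slc38a3 and Slc38a1, lay on the higher side without passing the threshold. Slc38a3 (ENSMUSG00000010064), which moves glutamine across the astrocyte membrane, measured 16.3, 23.9 and 19.4 RPKM in control libraries 1 to 3 and 28.7, 34.7 and 24.1 RPKM in knockdown libraries 1 to 3. The lowest knockdown library exceeded the highest control library by a small margin. The means were 19.9 ± 3.84 and 29.2 ± 5.35 RPKM (SD, n = 3 each), 46.9% higher in knockdown. The log2 change was 0.53 with a 95% interval of 0.15 to 0.92 and an adjusted p of 0.106 in limma. In each group the library poorest in choroid plexus transcripts was the lowest. It passed under 1 of 18 alternatives, with log2 Ttr, the most abundant choroid plexus transcript, as a covariate (log2 change 0.60, limma adjusted p = 0.0374). Without both libraries poor in choroid plexus transcripts the log2 change was 0.53 and the adjusted p in limma 0.141. The part of choroid plexus tissue in the level of Slc38a3 was not tested further.

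Slc38a1 (ENSMUSG00000023169), a glutamine carrier of neurons, measured 17.4, 16.4 and 16.8 RPKM in control libraries 1 to 3 and 17.8, 20.96 and 18.0 RPKM in knockdown libraries 1 to 3. The knockdown libraries were higher, with library 2 above the rest. The log2 change was 0.16, with a 95% interval of -0.02 to 0.33 and an adjusted p of 0.259 in limma. Without knockdown library 2 the change was 0.08. The log2 ratio of Slc38a3 to Slc38a1 was 0.21 ± 0.31 in control and 0.59 ± 0.16 in knockdown (SD, n = 3 each), and its ranges overlapped (exact permutation p = 0.2, adjusted 0.22).

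Slc6a11 (ENSMUSG00000030307), the GABA transporter of astrocytes, had the lowest log2 change of the members and the widest spread. It measured 50.4, 32.0 and 29.0 RPKM in control libraries 1 to 3 and 27.4, 19.95 and 20.9 RPKM in knockdown libraries 1 to 3. The groups did not overlap, but the control group was spread by library 1, and the highest knockdown library came close to the lowest control library. The means were 37.1 ± 11.6 and 22.8 ± 4.06 RPKM (SD, n = 3 each), 38.7% lower in knockdown, and the log2 change was -0.65 (SE 0.21, 95% interval -1.15 to -0.16). The adjusted p in limma was 0.117, and none of 18 alternatives brought it under 0.05 (0.0554 to 0.278). Without control library 1 the log2 change was -0.42, and without that library and knockdown library 3 it was -0.37.

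Thalamus markers, summed, were highest in the library with the highest Slc6a11, but without 1 of the 8 markers they were not. The 8 thalamus markers summed to 23.2, 13.3 and 16.7 RPKM in control libraries 1 to 3 and to 16.2, 19.0 and 17.1 RPKM in knockdown libraries 1 to 3. None of the 8 was at 0 in all libraries. The excess of control library 1 was largest in Slc17a6, a vesicular glutamate transporter abundant in thalamus, which stood there at 6.46 RPKM against 1.13 to 2.39 RPKM in the other libraries. Tcf7l2 and Prkcd were also highest in control library 1, at 2.00 and 6.33 RPKM, against 0.594 to 1.28 and 4.53 to 6.02 RPKM elsewhere. Rora, Plekhg1, Zfhx3, Amotl1 and Synpo2 were each higher in another library. Without Slc17a6, the remaining 7 markers summed to 16.7, 12.2 and 14.3 RPKM in control libraries 1 to 3. In knockdown library 2 they summed to 17.1 RPKM, with Plekhg1 at 4.67 RPKM against 3.10 RPKM in control library 1. Knockdown library 2 had the lowest Slc6a11 and the next highest sum of all 8. The part of neighbouring tissue in the level of Slc6a11 was not tested.

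**Figure D2:**
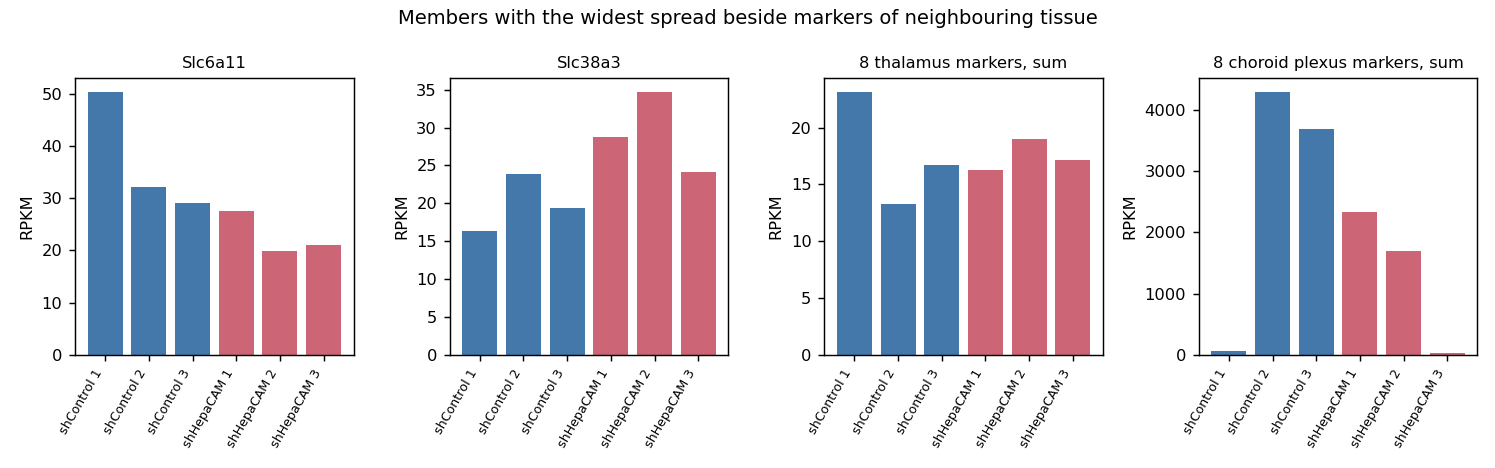
RPKM in each library (bars, axes from 0) of Slc6a11 and Slc38a3 and of the summed thalamus and choroid plexus markers, with control libraries in blue and knockdown libraries in red. The control library with 50.4 RPKM of Slc6a11 has the highest thalamus sum, 23.2 RPKM, of which Slc17a6 gives 6.46 RPKM, and the knockdown library with the next highest sum, 19.0 RPKM, has the lowest Slc6a11; both choroid plexus sums near 0 belong to the lowest Slc38a3 library of their group.

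Set beside 12 astrocyte markers of the same library, Slc1a2 was lower in knockdown by more than on its own. Its log2(RPKM + 1) exceeded the markers' mean by 2.36, 2.33 and 2.37 in control libraries 1 to 3 and by 1.97, 1.91 and 1.94 in knockdown libraries 1 to 3. The difference was -0.42, and -0.38 and -0.14 for Glul and Slc1a3, whose groups did not overlap either. Slc6a11 gave -0.70 without overlap, while Slc1a1, Slc38a1 and Slc38a3 overlapped, at -0.05, 0.11 and 0.48. Exact permutation p-values were 0.1, the smallest possible, for the 4 without overlap, and 0.2 to 0.6 for the others (0.157 and 0.22 to 0.6 adjusted over the 11 relations). With every library scaled to these markers before the fit across all genes, Slc1a2 had a log2 change of -0.42 and an adjusted p of 0.0178 in limma. The 12 markers themselves did not pass the threshold, and their median log2 change was 0.09. They did not all stay level, and their log2 changes ran from -0.25 for Aldoc to 0.29 for Gfap. Every knockdown library lay below every control library for Aldoc and S1pr1 (-0.16), as for 10.7% of all genes tested. For Ntsr2 (0.16) every knockdown library lay above, as for 20.9% of all genes tested.

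**Figure D3:**
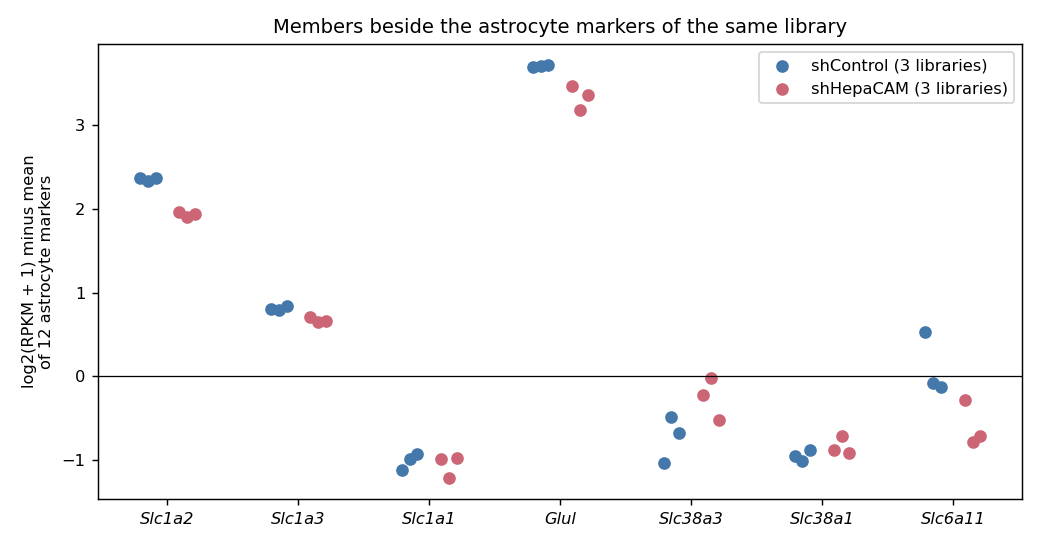
Level of each member less the mean of 12 astrocyte markers in the same library, both as log2(RPKM + 1), with control libraries in blue and knockdown libraries in red. Slc1a2 shows the 3 control libraries at 2.33 to 2.37 and the 3 knockdown libraries at 1.91 to 1.97, with less spread than Slc6a11 or Slc38a3.

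Among 32 other genes of the same pathways, 30 were tested, of which 2 fell, 1 rose and 27 did not pass in limma, with a median log2 change of -0.06. By the same rule 1.84% of all genes tested fell and 4.23% rose, so counts this small say little of the pathways as a set. Those that fell were Got2, the mitochondrial aspartate aminotransferase, which interconverts glutamate and aspartate, and Slc17a7, the vesicular transporter that loads glutamate into synaptic vesicles of hippocampal excitatory neurons. Got2 measured 37.7, 38.4 and 39.6 RPKM in control libraries 1 to 3 and 27.6, 24.2 and 25.2 RPKM in knockdown libraries 1 to 3. The groups were far apart relative to their spread (log2 change -0.57, SE 0.06, limma adjusted p = 0.00826), although the adjusted p was 0.0502 without control library 3 and 0.0707 without both libraries poor in choroid plexus transcripts. Slc17a7 measured 339, 353 and 371 RPKM in control libraries 1 to 3 and 270.1, 196 and 222 RPKM in knockdown libraries 1 to 3. All knockdown libraries were lower, with means of 355 ± 16.0 and 229 ± 37.5 RPKM (SD, n = 3 each) and -0.64 (SE 0.12) as log2 change, at an adjusted p of 0.0289 in limma. Its adjusted p was 0.0742, 0.104 and 0.117 without control library 1, 2 or 3, in that order, and 0.0780 without knockdown library 3. It was 0.0929 with no filter on low genes and 0.133 without both libraries poor in choroid plexus transcripts. Of 10 neuron markers 2 fell as well, Tubb3 and Snap25, against 1.84% of all genes tested, and 8 did not pass. The 10 did not move together: log2 changes ran from -0.82 for Stmn2 to 0.10 for Nefm, with Rbfox3 (0.01) and Thy1 (0.07) also above 0. The sum of the 10 was 1153 to 1171 RPKM in control and 880 to 1061 RPKM in knockdown. The part of neuron content in the level of Slc17a7 was not tested.

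The gene that rose was Glud1, glutamate dehydrogenase, which feeds glutamate into the citrate cycle. It measured 62.1, 61.2 and 59.4 RPKM in control libraries 1 to 3 and 69.2, 74.1 and 72.5 RPKM in knockdown libraries 1 to 3. The knockdown libraries were all higher, by 0.24 on the log2 scale (SE 0.05), but its adjusted p of 0.0494 in limma lay at the threshold and was above it under 15 of 18 alternatives, leaving out any single library among them. Reads of Glud1 may be shared with its pseudogene Glud-ps, which was at 0.534 to 1.58 RPKM. Of 13 glutamate and GABA enzymes and mitochondrial carriers, 1 fell (Got2), 1 rose (Glud1) and 11 did not pass. Among all genes tested 1.84% fell and 4.23% rose.

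The other 27 pathway genes did not pass in limma. Of 4 other glutamate carriers, the neutral amino acid exchanger Slc1a5 and the cystine-glutamate exchanger Slc7a11 had the smallest p-values, at log2 changes of 0.30 and 0.24 (limma adjusted p = 0.165 and 0.257). Of the other GABA and glycine carriers, 3 of 4 were tested, among them Slc6a13, a GABA carrier of meninges and vessels, at 0.43 (adjusted p = 0.173). Slc6a12 lay under the filter at 0.170 to 1.16 RPKM. Of 4 other glutamine carriers, Slc38a5, another glutamine carrier of glia, had a log2 change of 1.05 (limma adjusted p = 0.0864), with 2.61, 2.06 and 1.17 RPKM in control libraries 1 to 3 and 5.30, 7.47 and 2.97 RPKM in knockdown libraries 1 to 3. All its knockdown libraries lay above control, as for 20.9% of all genes tested, but it rested on as few as 39 reads in a library. It passed under 1 of 17 alternatives, without knockdown library 3 (1.34, limma adjusted p = 0.0485). Without knockdown library 2 or control library 3 the change was 0.80 or 0.84 (limma adjusted p = 0.182 and 0.243). Slc7a5, a large neutral amino acid carrier, was at -0.22 (adjusted p = 0.253). Of the vesicular carriers, Slc32a1, which loads GABA, was at -0.25 (adjusted p = 0.262), and Slc17a8 lay under the filter. Of 3 genes that keep up or use the ion gradient behind uptake, the potassium channel Kcnj10 had a log2 change of 0.10 (limma adjusted p = 0.671).

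**Figure D4:**
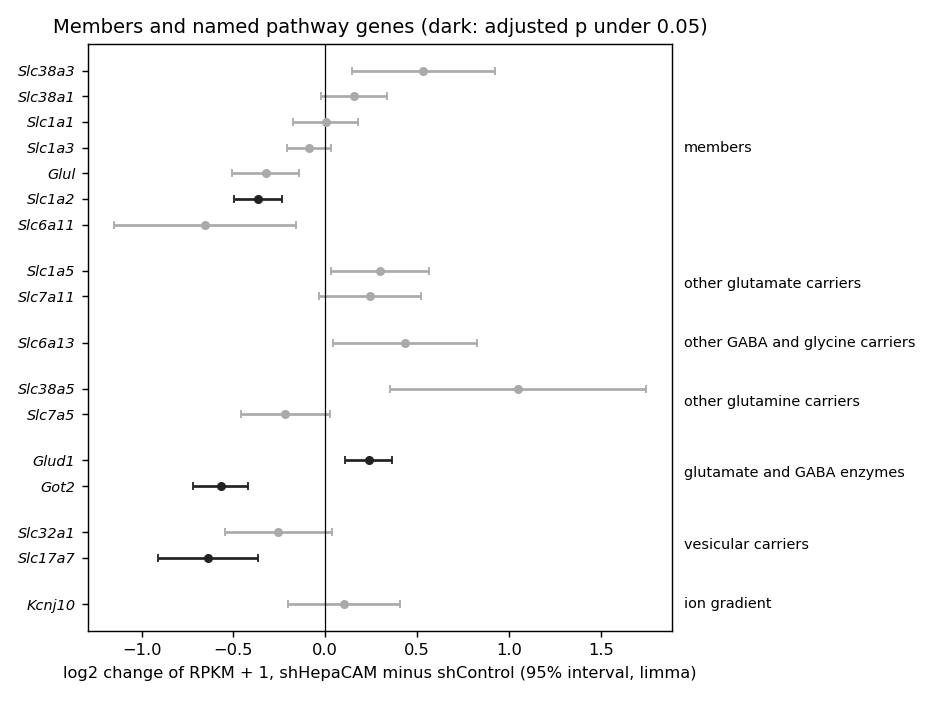
Log2 change of RPKM + 1, knockdown minus control, for the 7 members and 10 named pathway genes by list, with 95% intervals that are not adjusted for the number of genes; dark points passed an adjusted p of 0.05 in limma. Slc1a2, Got2 and Slc17a7 lie left of 0 and Glud1 right of it, while Slc6a11 and Slc38a5 have the wider intervals and did not pass.

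The genes with the pattern closest to that of Slc1a2 were sought among 4802 other protein-coding genes whose mean reached 10 RPKM, by the root mean square difference of centred log2(RPKM + 1) over the 6 libraries. Camk2a, a calcium-dependent kinase of excitatory neurons, was closest at 0.0382, followed by Rufy3, a protein of neurons, at 0.0407 and Elk1, a transcription factor, at 0.0409, where the median gene stood at 0.215. Their own log2 changes were -0.34, -0.30 and -0.35, near that of Slc1a2 because the genes were chosen for likeness over the same libraries. For Slc6a11 the closest were Vamp1, a synaptic vesicle fusion protein, at 0.115, mt-Atp6, an ATP synthase subunit, at 0.159 and Pnck, a kinase, at 0.160, where the median gene stood at 0.44.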

How the data were processed

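RNA sequencing of hippocampus gave 6 libraries, grouped and numbered by their titles as 3 shControl (control) and 3 shHepaCAM (knockdown). The deposited values are RPKM computed by the authors, in 1 file per library. Per the submitters' processing notes, TopHat2 2.0.12, Bowtie2 2.0.6 and build mm39 were used; the counter, annotation, strand setting and handling of reads with several positions were not given in the sources used here, which limits genes with overlapping neighbours or copies. Names and exon lengths came from GENCODE M21, on another build; 29805 of 29872 identifiers matched. RPKM times exon length gave whole reads within 0.01 in every library for 27390 genes, which gave each library's depth. A further 1684 genes were whole at another length.

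The test was limma 3.58.1 in R 4.3.3 with a mean-variance trend on log2(RPKM + 1), for the 13864 genes whose mean reached 1 RPKM, with Benjamini-Hochberg adjustment over all of them. It was tested on simulated data. Log2 changes on this scale understate low genes. Counts of the closest pair of libraries differed beyond sampling noise (chi-square over its degrees of freedom, 4.15), so no library was counted as a repeat of another's reads; a second preparation of the same RNA would also differ in this way. Single relations were tested by exact permutation. Members, lists and alternatives were chosen with earlier results of these data known; the ratio of Slc38a3 to Slc38a1 was added after the values were seen. Named pathway genes are those past the threshold and the 2 with the smallest p in each list; some of these, and 2 of the 11 relations, are not reported here. Alternatives covered pseudocount, filter, scaling, variance model, weights, replicate block, a Ttr covariate, limma-voom on whole reads and libraries left out. Figures used matplotlib 3.10.9 in Python 3.11.15.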

Additional observations from a re-analysis of the deposited data

How the results depend on the processing

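Slc1a2 and Slc6a11 were lower in knockdown under all 18 alternatives, with log2 changes of -0.46 to -0.34 and of -0.81 to -0.37, and Slc38a3 was higher, at 0.40 to 0.67. The shares of all genes called under the alternatives are not given here, so the counts below show only how calls moved. The count of members called lower, 1 as reported, was 2 with array weights, a filter at 5 RPKM, limma-voom on whole reads and quantile normalization, where Glul passed too. It was 0 with no filter, with the replicate block and without both libraries low in choroid plexus, and 0 to 1 with single libraries left out. The count called higher was 1 with log2 Ttr as a covariate, and 0 in limma as reported and with any library left out. Pathway genes called lower, 2 as reported, numbered 4 with limma-voom on whole reads, 1 with no filter and with the replicate block, 0 without both libraries low in choroid plexus and 0 to 3 with single libraries left out. Pathway genes called higher, 1 as reported, numbered 2 with array weights, 0 to 1 with single libraries left out, and 0 without trend, with log2 Ttr as a covariate, no filter, a pseudocount of 0.1, quantile normalization, the replicate block, either scaling or without both libraries low in choroid plexus. Hepacam was -0.54 without both of those libraries (adjusted p = 0.0695) and -0.68 to -0.58 with single libraries left out.

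Deviations of same-numbered libraries correlated at -0.21, 0.02 and -0.14, against -0.18 to 0.27 for differently numbered ones. The numbers thus showed no pairing of the libraries. Deviations from means of 3 libraries cannot exclude one. With the replicate block Slc1a2 had an adjusted p of 0.0825 and Slc17a7 of 0.0802 in limma, so both calls were lost. The log2 ratio of Slc1a2 to Slc1a3 was -0.29 to -0.27 and Slc1a2 over the astrocyte markers -0.43 to -0.40 with single libraries left out. Every member rested on 1470 or more reads per library, and the precision of the group means is limited by 3 libraries a group.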
